A study of Mus musculus with 2 samples.

Results

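The neuron-enriched microRNA families miR-128, miR-129, miR-138 and miR-218 are each encoded at 2 separate places in the mouse genome. Both hairpin genes of each family were taken by symbol from the count tables, giving 8 genes (Mir128-1, Mir128-2, Mir129-1, Mir129-2, Mir138-1, Mir138-2, Mir218-1 and Mir218-2) of the 1973 that the tables list. The copies were set against each other within each family. The libraries were small RNA libraries, of under 30 bases, from total RNA of the midbrain of B6NCrl mice on postnatal day 0, 1 library from the single midbrain of pup 1 and 1 from that of pup 3. There is 1 group of 2 animals with no treatment, genotype or second age to compare. Sex was not collected, and the same donor identifier stands on both labels. All means are over n = 2 pups with the SD, and p-values set 1 library against the other, not one condition against another.

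A microRNA gene is transcribed as a long primary RNA in which a hairpin folds. The hairpin is cut out in the nucleus and again in the cytoplasm, and 1 of its arms, the mature strand, guides Argonaute proteins to messenger RNAs that match its seed. Copies of a family give the same mature strand from the one arm, while the arm opposite differs between them. In neurons miR-128 lowers excitability, miR-129 takes part in the homeostatic scaling of synapses, miR-138 restrains the size of dendritic spines, and miR-218 is abundant in motor neurons and in dopaminergic neurons of the midbrain.

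The sequences decide which reads the tables can count, so they are given first. RefSeq on GRCm38.p6 held all 8 hairpins and 11 distinct mature strands. Of these strands 4 lie in both hairpins of a family, letter for letter. They are printed 5′ to 3′ with the seed, bases 2 to 8, in capitals.
miR-128-3p: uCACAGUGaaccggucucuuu
miR-129-5p: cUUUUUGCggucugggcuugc
miR-138-5p: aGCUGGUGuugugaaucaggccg
miR-218-5p: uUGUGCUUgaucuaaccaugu
The 4 seeds differ from each other, so the families do not share a seed. Only miR-218-5p shared its seed with another mature strand of the RefSeq table, miR-7002-3p.

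The other 7 strands belong to 1 copy each. They are printed the same way.
miR-128-1-5p: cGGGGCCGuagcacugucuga
miR-128-2-5p: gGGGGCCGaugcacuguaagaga
miR-129-2-3p: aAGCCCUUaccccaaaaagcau
miR-138-1-3p: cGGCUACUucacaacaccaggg
miR-138-2-3p: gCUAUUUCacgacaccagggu
miR-218-1-3p: aAACAUGGuuccgucaagcacc
miR-218-2-3p: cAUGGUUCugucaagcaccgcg
The 5p arms of the miR-128 copies carried 1 seed between them, GGGGCCG, and differed at 5 of 21 aligned bases, counted from the 5′ end of miR-128-1-5p (C1G, U9A, A10U, C18A and U19A). The 3p arms of miR-138 started 2 bases apart and those of miR-218 started 3 bases apart, and neither pair had a seed in common. Within the aligned stretch miR-138-1-3p and miR-138-2-3p differed at 2 of 20 bases (C7U and A13G). Within theirs, miR-218-1-3p and miR-218-2-3p differed at 1 of 19 bases (C12U). The 3p arm of Mir129-2 was the closest to its other copy, since its first 19 bases of 22 stand in the Mir129-1 hairpin as an unbroken run. A 3p strand of Mir129-1 was not used here.

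The hairpins show how far the identity reaches. Each is printed with the run that both copies share around the mature strand in capitals, so that the first lower-case letter after them is where the copies part. The annotated Mir138-2 hairpin begins with the run, so on its 5′ side the run ends with the annotation. Positions are on GRCm38.
Mir128-1 (chr1:128202361-128202430, + strand): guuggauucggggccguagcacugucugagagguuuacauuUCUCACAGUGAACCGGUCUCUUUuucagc
Mir128-2 (chr9:112118636-112118711, - strand): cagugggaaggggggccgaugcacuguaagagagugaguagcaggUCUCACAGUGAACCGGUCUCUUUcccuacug
Mir129-1 (chr6:29022619-29022691, + strand): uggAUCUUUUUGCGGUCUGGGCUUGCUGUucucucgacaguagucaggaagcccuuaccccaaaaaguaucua
Mir129-2 (chr2:94241364-94241453, - strand): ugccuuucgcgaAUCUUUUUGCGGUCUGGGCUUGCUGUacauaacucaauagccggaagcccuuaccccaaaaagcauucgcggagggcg
Mir138-1 (chr9:122682876-122682974, + strand): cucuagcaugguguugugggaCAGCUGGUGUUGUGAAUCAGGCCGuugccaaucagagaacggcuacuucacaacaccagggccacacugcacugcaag
Mir138-2 (chr8:94324311-94324381, + strand): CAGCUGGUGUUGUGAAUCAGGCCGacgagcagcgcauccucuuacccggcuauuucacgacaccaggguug
Mir218-1 (chr5:48223942-48224051, + strand): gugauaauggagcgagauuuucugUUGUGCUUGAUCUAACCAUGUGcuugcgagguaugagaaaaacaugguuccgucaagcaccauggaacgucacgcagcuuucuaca
Mir218-2 (chr11:35616816-35616925, + strand): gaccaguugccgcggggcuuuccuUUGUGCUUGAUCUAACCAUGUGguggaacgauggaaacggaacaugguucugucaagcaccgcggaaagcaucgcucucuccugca

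The shared run was 23 bases in miR-128, 26 in miR-129, 24 in miR-138 and 22 in miR-218. A read that starts at the first base of the mature strand and follows the hairpin becomes different between the copies at a length of 22 bases in miR-128, 23 in miR-218, 24 in miR-138 and 25 in miR-129. In miR-128 and miR-138 that is the first base after the RefSeq mature strand. There Mir128-1 continues with U and Mir128-2 with C, and Mir138-1 continues with U and Mir138-2 with A. Outside this run in both hairpins, miR-129 had a further shared run of 21 bases on its 3p side, whereas the longest was 10 bases in miR-218 and 9 in miR-138, and none of 8 bases or more was found in miR-128. Reads that mapped to several places were counted under no gene, so a read that lies wholly within the capitals could add to neither copy.

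Every stretch of 22 bases of the 8 hairpins was looked up in all 1005 hairpins of the RefSeq table, on both strands. Of 49 such windows in Mir128-1, 2 also stood in Mir128-2, and the same number of 55 windows in Mir128-2 stood in Mir128-1. For miR-129 it was 5 of 52 windows in Mir129-1 and 5 of 69 in Mir129-2, and for miR-138 3 of 78 in Mir138-1 and 3 of 50 in Mir138-2. In miR-218 it was 1 of 89 in each copy. The windows of a member matched no hairpin outside its own family, apart from Mir129b, which is annotated on the strand opposite to Mir129-2 and holds the same 5 windows of Mir129-1 in reverse complement. Each hairpin therefore had between 90.4% and 98.9% of its windows to itself, and the windows that did not lay over the shared mature strand. The rest of the genome was not searched.

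**Figure D1:**
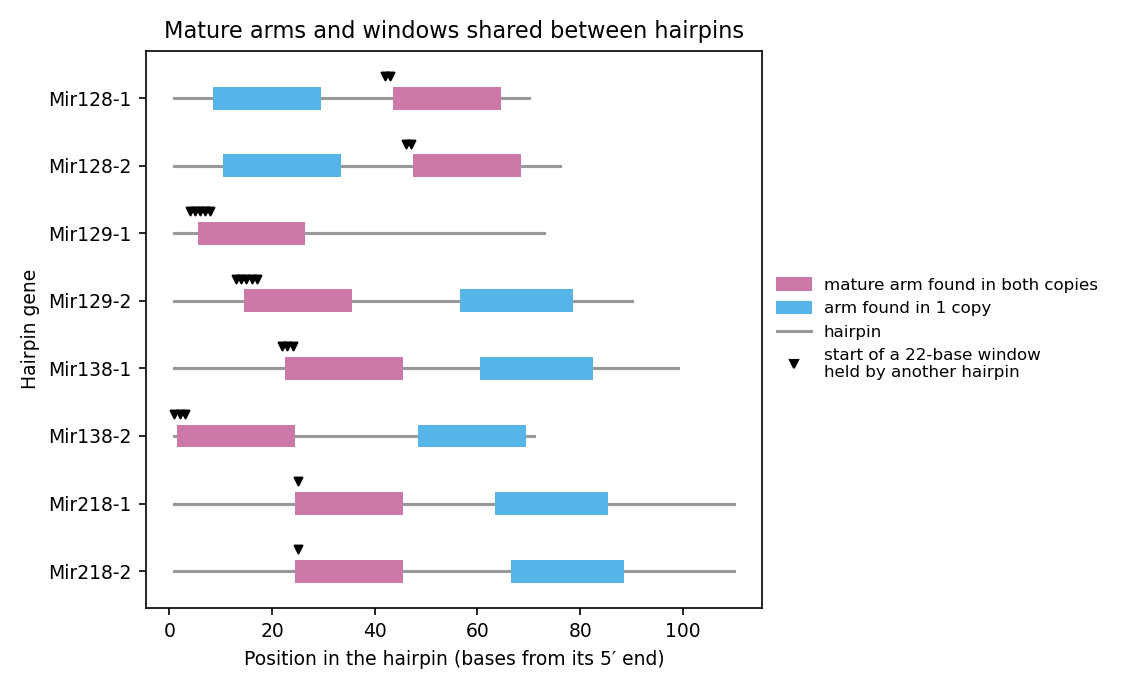
Each row is a hairpin, drawn in bases from its 5′ end, with the mature strand found in both copies in pink, the strand found in 1 copy in blue, and a triangle at the start of each 22-base window that another hairpin also holds. The triangles sit at the shared strand of every hairpin, 1 in each miR-218 copy and 5 in each miR-129 copy, and none falls elsewhere.

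In every family the copies lay on different chromosomes. Mir128-1 (ENSMUSG00000065520.1) lies on the plus strand of chromosome 1 in an intron of R3hdm1, and Mir128-2 (ENSMUSG00000065441.1) on the minus strand of chromosome 9 in an intron of Arpp21, a gene of striatal and cortical neurons. Mir218-1 (ENSMUSG00000065603.1) and Mir218-2 (ENSMUSG00000065583.1) lie in introns of Slit2 on chromosome 5 and Slit3 on chromosome 11, genes for secreted axon guidance proteins. Mir129-1 (ENSMUSG00000065469.1) overlaps an exon of the long noncoding gene Gm3294 on chromosome 6. Mir129-2 (ENSMUSG00000065511.1) lies in an intron of the noncoding gene Mir670hg on chromosome 2, with Mir129b on the opposite strand. Mir138-1 (ENSMUSG00000065414.1) overlaps an exon of the transcribed pseudogene Gm47135 on chromosome 9, and Mir138-2 (ENSMUSG00000065512.2) an exon of the noncoding gene C78859 on chromosome 8. All host genes named are on the hairpin's own strand. Leaving out the overlapping Mir129b, the nearest other annotated microRNA gene was Mir670, 19847 bases from Mir129-2, and for the other 7 hairpins it was 127863 bases or more away.

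The 8 hairpins together held 34255 counts in pup 1 and 42659 in pup 3, or 1.40% ± 0.0924 of the counts on microRNA genes (n = 2). The miR-128 copies made up 71.4% of these counts in pup 1 and 74.4% in pup 3. Each of the 8 passed the minimum for detection, 10 counts in both libraries. Levels are given in CPM, the own-strand counts out of every 1000000 on microRNA genes, and an interval after a CPM or a share is an exact (Clopper-Pearson) 95% interval, which covers counting error only, since reads without molecular identifiers are not independent molecules. These levels count only reads that could be placed at 1 copy, so they are uncertain to an unknown degree as levels of the microRNA itself.

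miR-128, which dampens neuronal excitability, had the most counts. Mir128-1 had 18427 counts in pup 1, which is 7885 CPM, and 24004 counts in pup 3, which is 7512 CPM, a mean of 7698 ± 263 CPM (n = 2). Mir128-2 had 6020 counts, 2576 CPM, in pup 1 and 7732 counts, 2420 CPM, in pup 3, a mean of 2498 ± 110.3 CPM (n = 2). Mir128-1 was above Mir128-2 in both pups, and the pups' values of the copies did not overlap. Among all genes of the tables Mir128-1 ranked at 29 by mean CPM and Mir128-2 at 70.

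miR-138, which acts locally at dendritic spines, came next. Mir138-1 had 4888 counts, 2091 CPM, in pup 1 and 5556 counts, 1739 CPM, in pup 3, a mean of 1915 ± 249 CPM (n = 2). Mir138-2 had 2633 counts, 1127 CPM, in pup 1 and 3240 counts, 1014 CPM, in pup 3, a mean of 1070.3 ± 79.6 CPM (n = 2). The copies of this family were the closest to each other of the 4, and their values still did not overlap between the pups. Their ranks were 81 and 96.

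miR-129, a family tied to synaptic scaling, had fewer counts and, as a ratio, the largest difference between copies. Mir129-2 had 1749 counts, 748 CPM, in pup 1 and 1534 counts, 480.1 CPM, in pup 3, a mean of 614 ± 189.7 CPM (n = 2). Mir129-1 had 302 counts, 129 CPM, in pup 1 and 267 counts, 83.6 CPM, in pup 3, a mean of 106 ± 32.3 CPM (n = 2). Both copies were lower in pup 3 than in pup 1. Their ranks were 123 and 220.

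miR-218, known from motor and dopaminergic neurons, had the fewest counts. Mir218-2, in Slit3, had 172 counts, 73.6 CPM, in pup 1 and 224 counts, 70.1 CPM, in pup 3, a mean of 71.8 ± 2.47 CPM (n = 2). Mir218-1, in Slit2, had 64 counts, 27.4 CPM, in pup 1 and 102 counts, 31.9 CPM, in pup 3, a mean of 29.7 ± 3.21 CPM (n = 2). Both stood well above the 1.28 CPM in pup 1 and 0.939 CPM in pup 3 that a count of 0 allows, and ranked at 240 and 273. A low count under these rules does not show that miR-218 is scarce in the midbrain, since reads of its shared strand of up to 22 bases match both copies.

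In falling order the levels were Mir128-1, Mir128-2, Mir138-1, Mir138-2, Mir129-2, Mir129-1, Mir218-2 and Mir218-1. No neighbours in this order had overlapping values between the pups. By the ratio of their means the closest neighbours were Mir128-2 and Mir138-1, at 1.30-fold. Counting intervals of neighbours overlapped within a pup only for Mir129-1 and Mir218-2, in pup 3, at 73.8 to 94.2 CPM for Mir129-1 against 61.2 to 79.9 CPM for Mir218-2. Divided by hairpin length the order was the same, from 10998 CPM per 100 bases for Mir128-1 and 3287 for Mir128-2 to 65.3 for Mir218-2 and 27.0 for Mir218-1.

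**Figure D2:**
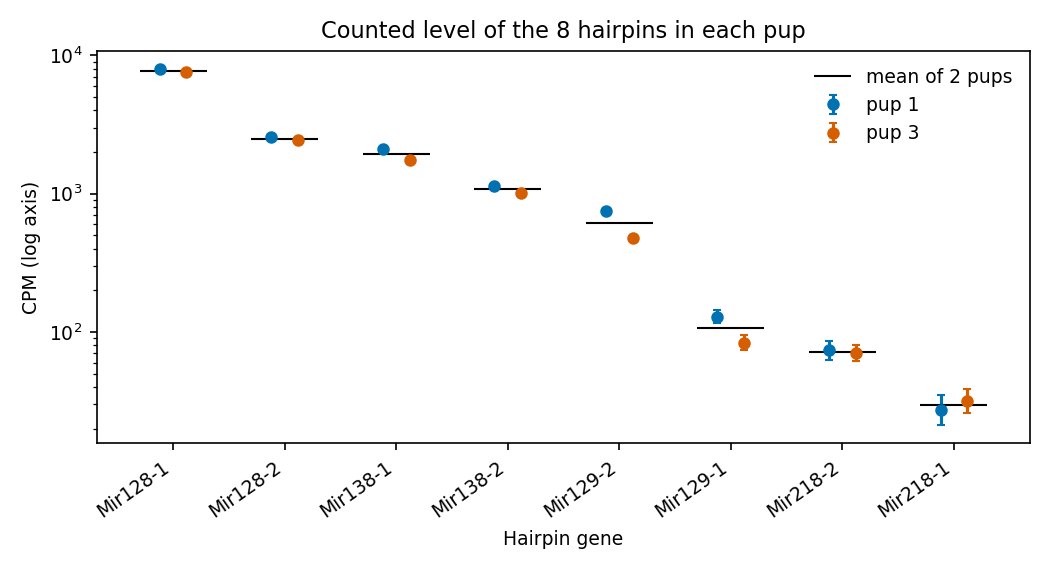
Points are the CPM of each hairpin in pup 1 (blue) and pup 3 (orange) on a log axis, with exact 95% counting intervals, and the black line is the mean of the 2 pups. The levels run from 7698 CPM for Mir128-1 to 29.7 CPM for Mir218-1, and the 2 miR-129 hairpins show the widest gap between the pups.

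Comparing copies within a library removes the library's depth and scaling. Mir128-1 held 75.4% of the miR-128 counts in pup 1 (interval 74.8 to 75.9) and 75.6% in pup 3 (75.2 to 76.1), a mean of 75.5% ± 0.185 (n = 2). Mir129-2 held 85.3% of the miR-129 counts in pup 1 (83.7 to 86.8) and 85.2% in pup 3 (83.4 to 86.8), a mean of 85.2% ± 0.0711 (n = 2). In these families the copy ratio was the same in the pups to within a few hundredths, 3.06 and 3.10 for Mir128-1 over Mir128-2 and 5.79 and 5.75 for Mir129-2 over Mir129-1.

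Mir138-1 held 65.0% of the miR-138 counts in pup 1 (63.9 to 66.1) and 63.2% in pup 3 (62.1 to 64.2), a mean of 64.1% ± 1.29 (n = 2). Mir218-2 held 72.9% of the miR-218 counts in pup 1 (66.7 to 78.4) and 68.7% in pup 3 (63.4 to 73.7), a mean of 70.8% ± 2.95 (n = 2). The intervals of the pups overlapped in all 4 families, and none of the intervals reached 50%. So in each family the same copy was counted more in both pups, by 1.71 to 5.79 times. A read of the RefSeq strand of miR-128-3p or miR-138-5p with a U added at its end matches Mir128-1 or Mir138-1, the more counted copies, and not the other copy. With an A added, a read of miR-138-5p matches Mir138-2 instead, and with a C added, one of miR-128-3p matches Mir128-2. How many counted reads carried such an added base was not tested. The shares are therefore those of counted reads and not of the transcribed copies. Dividing the counts by hairpin length moved the share of Mir138-1, whose hairpin is 99 bases long against 71 for Mir138-2, to 56.1%. Such a division takes reads to arise evenly along the annotated hairpin, which was not tested.

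The more counted copy was the first by number in miR-128 and miR-138 and the second in miR-129 and miR-218. It was the longer hairpin in miR-129 (90 against 73 bases) and miR-138 and the shorter in miR-128 (70 against 76 bases), and in miR-218 both are 110 bases long. The folding energy predicted from the sequence was lower, that is more stable, in the more counted copy of 3 of 4 families, at -48.0 against -31.0 kcal/mol in miR-129, -45.5 against -29.3 in miR-138 and -42.3 against -36.6 in miR-218. In miR-128 it was the other way, at -29.3 kcal/mol for Mir128-1 and -37.3 for Mir128-2. Only in miR-218 are the copies equally long. In the other families the longer hairpin had the lower energy, so energy and length cannot be told apart there. Of the 3p and 5p arms the tables say nothing, as they give 1 count for a whole hairpin.

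**Figure D3:**
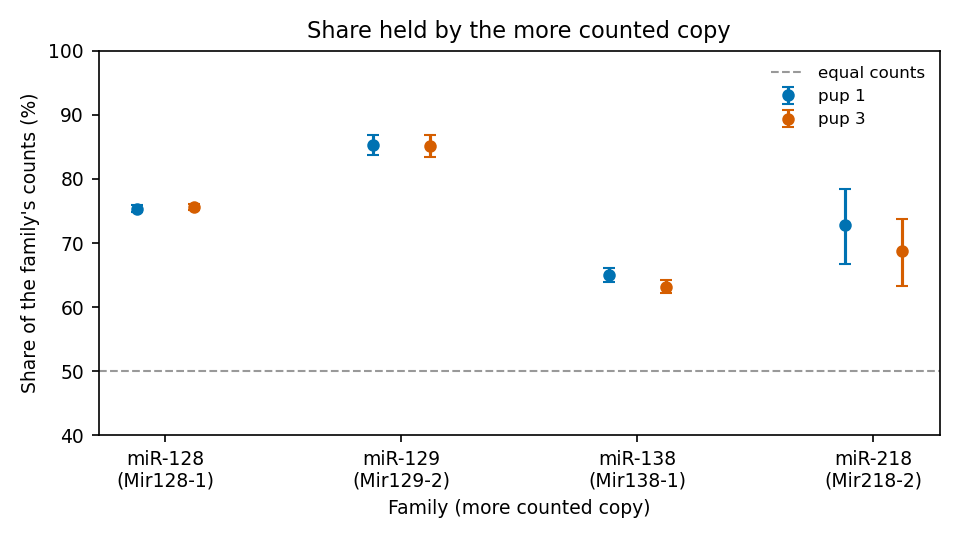
Points are the percent of a family's counts under its more counted copy, named in parentheses, in pup 1 (blue) and pup 3 (orange), with exact 95% intervals on an axis from 40 to 100%, and the dashed line marks equal counts. All points lie above the line, from 63.2% in miR-138 to 85.3% in miR-129, and the intervals of the pups overlap in every family.

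The same rule was applied to every microRNA family with exactly 2 numbered copies, to see where the 4 families stand. The annotation has 43 such families, the tables list both copies of 35, and 22 had at least 10 counts in each library, 18 of them besides the 4. The median share of the more counted copy over those 18 was 74.4%, with a range from 53.3% for Mir135a-2 to 99.1% for Mir181b-2. By this share miR-129 ranked at 7 of 22, miR-128 at 11, miR-218 at 12 and miR-138 at 15, so the neuronal families lay in the middle of the range. A copy held over 90% of the counts in 6 families, none of them among the 4.

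What the copies share in sequence was of the same kind, with a longest common run of 22 to 26 bases in the 4 families against 22 to 28 bases and a median of 25 in the others with both hairpins in RefSeq. The share moved little between the pups in miR-129, by 0.101 percentage points, and in miR-128, by 0.261 points. These were the smallest and the third smallest changes of the 22. In miR-138 it moved by 1.83 points and in miR-218, which has the fewest counts of the 4, by 4.17 points. Over the other 18 families the median change was 2.53 points, from 0.192 for Mir181b to 18.2 for Mir19b, which had 33 counts in each library. The size of the change was not set against what counting error alone would give, and families with more counts have less of that error.

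**Figure D4:**
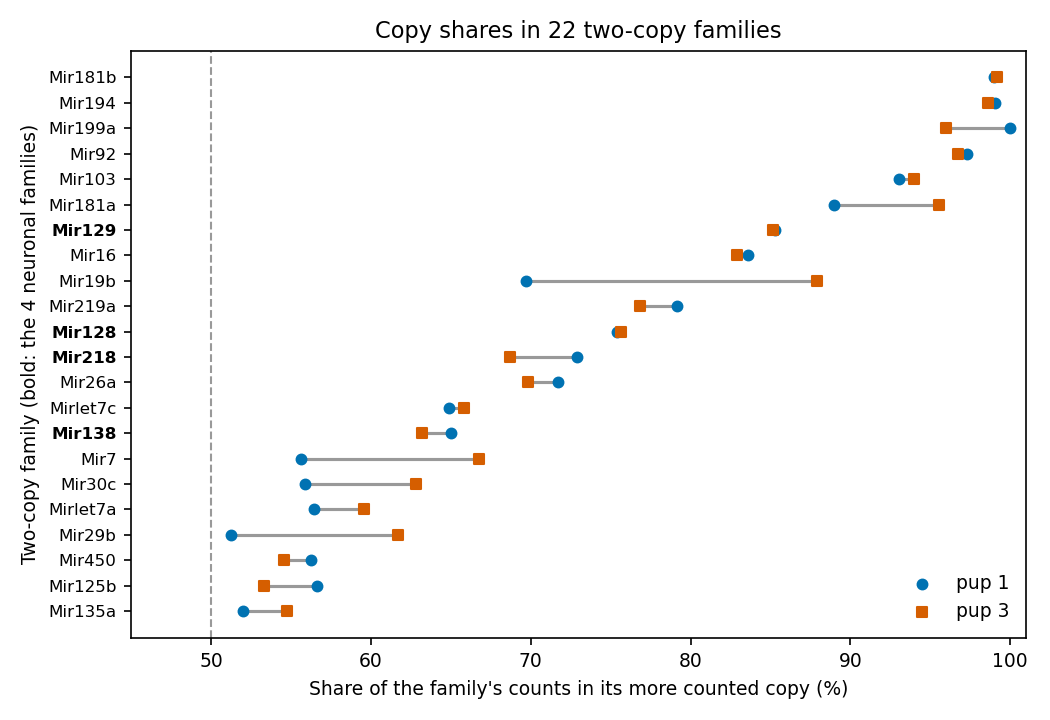
Each row is a family with 2 numbered copies, ordered by the mean percent of its counts under the more counted copy, with pup 1 as blue circles, pup 3 as orange squares and the 4 neuronal families in bold. The families range from 53.3% (Mir135a) to 99.1% (Mir181b), the 4 lie between 64.1% and 85.2%, and the points of Mir129 and Mir128 nearly coincide.

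The pups were then compared with each other, with the ratio of pup 3 to pup 1 on the log2 scale after TMM scaling, a correction for the make-up of each library. Of the 286 genes whose counts averaged 50 or more, 1.75% were called different, with an adjusted p under 0.05 in Fisher's exact test and at least a 2-fold ratio. None of the 8 hairpins was among them, although all 8 were tested. The test used the plain library totals and the ratio the TMM-scaled ones, so for small ratios the p and the ratio can differ. At an adjusted p under 0.05 with no limit on the fold, 57.3% of the 286 genes were called and 6 of the 8 hairpins. With counts this deep such calls are common, and the test has no replicate check.

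The miR-129 copies had the largest ratios of the 8, and they were nearly equal. Mir129-2 had a log2 ratio of -0.69 (counting interval -0.79 to -0.59, adjusted p = 4.46e-36 by Fisher's exact test) and Mir129-1 one of -0.68 (-0.92 to -0.44, adjusted p = 6.36e-07 by the same test). After TMM scaling pup 1 thus had 1.61 and 1.60 times the level of pup 3, and these ratios ranked at 13 and 14 by size among the 286 tested. In plain CPM, without TMM scaling, the family total was 878 in pup 1 and 564 in pup 3, 35.8% lower. With a threshold of 1.5-fold in place of 2-fold, both Mir129 hairpins were called, among 6.64% of all tested genes.

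miR-138 moved less, with log2 ratios of -0.32 for Mir138-1 (-0.37 to -0.26) and -0.20 for Mir138-2 (-0.28 to -0.13). The ratios of miR-128 were smaller still, at -0.12 for Mir128-1 (-0.15 to -0.09) and -0.14 for Mir128-2 (-0.19 to -0.09). All 4 had an adjusted p under 0.05 by Fisher's exact test, the highest being 0.000664 for Mir128-2. The miR-218 copies pointed apart, at -0.12 for Mir218-2 (-0.41 to 0.18, adjusted p = 0.72 by Fisher's exact test) and 0.17 for Mir218-1 (-0.29 to 0.65, adjusted p = 0.433 by the same test), and at this depth neither difference was detectable.

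In all, 7 of the 8 hairpins had a ratio below 0, against 136 of the 286 tested genes (47.6%). Their median log2 ratio was -0.17, against 0.02 over all tested genes. The 8 ratios come from the same 2 libraries, so they are not 8 independent observations of a difference between the pups.

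**Figure D5:**
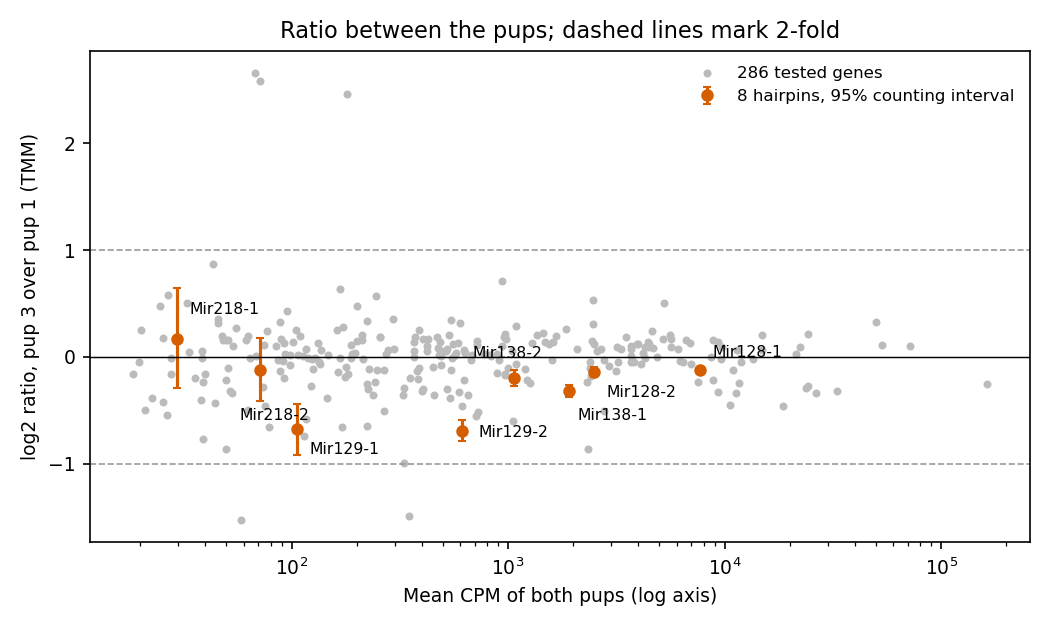
Grey points are the 286 tested genes, by mean CPM on a log axis and by the log2 ratio of pup 3 over pup 1 after TMM scaling, and orange points are the 8 hairpins with 95% counting intervals. Mir129-1 and Mir129-2 lie together at -0.68 and -0.69, within the dashed lines that mark 2-fold, and the other 6 lie nearer to 0.

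For scale, the genes with the most similar levels in the 2 libraries were looked up for the more counted copy of each family, by the distance in log2(CPM + 1) over n = 2 libraries. Mir128-1 lay closest to Mirlet7b, at a distance of 0.10, and Mir143, at 0.20. Mir129-2 lay closest to Mir92-1 (0.16), with 696 CPM in pup 1 and 524 in pup 3, and Mir485 (0.26), with 650.4 and 536 CPM. The distance uses the levels in both pups, so the nearest genes tend to differ between the pups in the same direction. Mir138-1 lay closest to Mir300 (0.33) and Mir484 (0.39), and Mir218-2 to Mir152 and Mir216b (both 0.13). With 2 libraries this is a likeness of level and no more.

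Among 16 other hairpins known from neurons and glia of the brain, 15 were in the tables, 12 were detected and 11 could be tested between the pups. None of the 11 was called at 2-fold, 6 had an adjusted p under 0.05 by Fisher's exact test with no limit on the fold, 5 had a ratio below 0 and 6 above, and their median log2 ratio was 0.04, against 0.02 over all tested genes. Mir137, which has a single copy, had 22082 CPM in pup 1 and 26512 in pup 3, above all 8 hairpins. Mir132, induced by neuronal activity, had 2424 and 2333 CPM, close to Mir128-2. Mir9-3 had 396 and 382 CPM and Mir124a-1 11.6 CPM in both pups, and these too belong to families whose mature strand has several copies.

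The libraries held 2337113 counts in pup 1 and 3195277 in pup 3 on microRNA genes, and a further 2111487 and 2937457 reads that mapped to several places, 38.7% and 39.8% of all reads. These outnumber the counts of the 8 hairpins many times, and how many of them came from the 4 families cannot be told from the tables. A chi-square of 33249 over the tested genes, with 285 degrees of freedom, put the libraries further apart than counting error. It is set against counting error only, so it cannot tell 2 animals from 2 libraries of 1 animal. The libraries were kept as 2 samples because their labels give them as 2 biological replicates. Counts on the strand opposite to the 8 hairpins were 0 in pup 1 and 1 in pup 3, under Mir129-2. Of the markers of the tissue, 5 of 7 neuronal hairpins were detected, with 33346 and 38891 CPM in all. Most of this came from Mir137 (22082 and 26512 CPM). Of those detected, only Mir132 was lower in pup 3 in plain CPM, at 2424 against 2333. Those not detected, Mir124a-2 and Mir124a-3, belong to a family whose mature strand has several copies. Hairpins of the Hox clusters, found in hindbrain and spinal cord, came to 1075 and 889.8 CPM. Of these 2 of 5 were detected (Mir10a and Mir10b), and Mir196a-1 was at 0. The summed level, in plain CPM, was lower in pup 3 for 7 of the 10 marker lists, and these sums were not tested. Beside the Hox clusters these were the erythroid list (2 of 2 detected) at 107 CPM in pup 1 and 60.1 in pup 3, the endothelial marker Mir126a at 36188 and 30095, and the hepatocyte marker Mir122 at 58.6 and 47.9. The microglia and leukocyte list (3 of 4 among the genes counted, all detected) had 611 and 549.6 CPM. The oligodendrocyte list (3 of 3) had 1656 and 1549 CPM, and the mural list (2 of 2) 7214 and 7123 CPM. Within these lists Mir223 (164 and 169 CPM) and Mir338 (748 and 791 CPM) were higher in pup 3, while the other counted markers were lower. By Fisher's exact test Mir122 (adjusted p = 0.15) and the mural markers Mir143 (0.324) and Mir145a (0.708) were not detectably different between the pups. Mir126a, Mir10a, Mir10b, Mir451a, Mir150 and Mir219a-2 had an adjusted p under 0.05 by the same test. Mir223, Mir146, Mir144, Mir219a-1 and Mir338 did not. Within the erythroid list Mir451a was lower in pup 3, at 86.4 against 31.0 CPM, while Mir144 had 20.1 and 29.1 CPM. The choroid plexus and ciliated list (5 of 5 detected) had 3941 and 4308 CPM. Within that list Mir204 was lower in pup 3, at 1350 against 1178 CPM. Mir449a (1647 and 2038 CPM) and Mir34c (907 and 1052 CPM) were higher. The striated muscle list (4 of 5 among the genes counted, 1 detected) had 19.7 CPM in both pups. Its Mir1a-1, Mir133a-1 and Mir133a-2 were at 0. Reads that map to several places enter no gene. A count of 0 here or for Mir196a-1 therefore does not show that a microRNA is absent. The part of the listed cell types in the lower miR-129 counts was not tested. In a whole tissue, fewer cells of a type and less RNA per cell cannot be told apart.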

How the data were processed

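The deposited tables hold raw counts per gene for each library, on either strand, the own strand and the opposite strand. They were made from alignments to mm10 with the GENCODE M4 annotation, per the deposited descriptions; for the aligner, its mismatch limit and the counter, nothing is given in the sources used here. Each column adds up to the same total, so reads that map to several places enter no gene. The 4 rows that name no gene held 57.2% (pup 1) and 56.7% (pup 3) of reads and stayed out of library sizes.

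Identifiers were matched without version to GENCODE M21, and 1894 of 1973 had a symbol. For Mir128-1, Mir128-2 and Mir138-2 the version differs from the deposited one, so the bounds counted may differ from those given. Own-strand counts were used. TMM factors came from edgeR 4.0.16 and ratios carry a prior count of 0.5. Fisher's exact test with Benjamini-Hochberg adjustment ran over all genes whose counts averaged 50 or more (scipy 1.17.1, statsmodels 0.14.6), after a check on simulated counts. The simulated counts varied by counting error only, so the check does not cover variation between animals. edgeR's own test needs replicates of each pup. Folding energies came from RNAfold 2.7.2 on RefSeq hairpins (GRCm38.p6), which have the same bounds as in GENCODE M21. No genome was used, so windows were searched in hairpins only.

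The 8 genes, the lists and the tests were chosen with earlier results of these data known. Genes named are the 8, the 2 nearest in level to the more counted copy of each family among genes with at least 10 counts in each library, the two-copy families of highest and lowest share, and up to 5 of a list of other neuron-enriched hairpins. The text also names families and markers chosen after their values were seen (Mir19b, Mir670, and single markers). Alternatives were other scalings (DESeq2 1.42.0, plain CPM), count minimums, prior counts, folds, either-strand counts, totals, window lengths and each pup alone; counts divided by hairpin length were added after seeing the data.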

Additional observations from a re-analysis of the deposited data

How the results depend on the processing

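All 8 hairpins were detected with either-strand counts, with at least 1 or 50 counts in each library and in each pup alone. The share of the more counted copy stayed above 50% under every alternative run. Divided by hairpin length, a choice made after seeing the data, it was 77.0% in miR-128, 82.4% in miR-129 and 56.1% in miR-138, and it did not move in miR-218, whose hairpins are equally long. Of the hairpins, 2 were called between the pups at 1.5-fold (Mir129-1 and Mir129-2) and 6 at any fold, and none with DESeq2 size factors, plain CPM, a prior count of 2, either-strand counts, or count minimums of 10 or 1. All 24 log2 ratios of the 8 hairpins under other scalings and prior counts kept their direction. With all reads as the library total, levels were 0.430 to 0.431 times those given, and without the most abundant gene 1.19 to 1.20 times, which leaves the order as it was. Windows of 18 bases were found at 1 hairpin in 76.8% to 94.6% of cases and those of 24 bases in 94.0% to 100%. The test between the pups could not be run without either pup. Depth limits miR-218 most, with 236 and 326 counts in the family.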
